A study of Mus musculus with 12 samples.

Results

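The genes described are 43 nucleolar and ribosome biogenesis factors, read from the deposited count table by gene symbol. All 43 were among the 23282 rows of the table, and all 43 passed the filter on low counts, so that each was among the 11857 genes tested. Transcripts were measured in splenic B cells of mice in 12 libraries, 3 in each of 4 groups. Mice of the ODN+IM156 group were injected i.p. with 50 µg of CpG-ODN 1826, a class B synthetic DNA that is recognised by the receptor TLR9, on days 1 and 3, and, on days 0 and 2, with 30 mg/kg of IM156, an inhibitor of oxidative phosphorylation. ODN mice received the same oligonucleotide doses without IM156, IM156 mice the same IM156 doses without oligonucleotide, and control mice no treatment. No vehicle is named for the control mice, so an agent and its injection cannot be told apart. Every group is labelled WT C57BL/6, with mice 7 weeks old and spleens taken on day 4, whereas the design text of the series speaks of lupus-prone mice. The labels give 3 experimental replicates per condition without the number or sex of the animals behind each, so p-values measure the spread between these libraries, which may be technical.

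Ribosomes are built in the nucleolus, where RNA polymerase I transcribes the long precursor of the ribosomal RNAs. Small nucleolar ribonucleoproteins (snoRNPs) of the box C/D and box H/ACA classes then modify the precursor, and large sets of assembly factors cut, fold and export the small and the large subunit. Resting lymphocytes make few ribosomes, and activation through antigen or Toll-like receptors is known to enlarge the nucleolus and to raise ribosome production, with Myc as a well-known activator of these genes.

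Total counts per library lay between 9650775 and 11532525. The 43 genes had 43 to 14387 counts in a library, with a median of 629. All 12 B-cell markers used, among them Cd79a and Ms4a1, were tested, and their sums lay between 9059.9 and 11006 CPM, which are counts scaled to each library's size with TMM factors, in every library. The libraries of the ODN group were the least alike. ODN replicate 2 held 1.46% of its counts in the ribosomal RNA row Rn45s, against 4.78% to 9.63% in the other 11 libraries. Xist, which coats the silenced X chromosome of female cells, had 1 count in ODN replicate 3 and 9701 to 13011 counts in each of the other 11, while 4 Y-linked genes summed to 0 to 2 counts in each of the 12. The 14 markers of cycling cells summed to 2368, 1071 and 674 CPM in ODN replicates 1, 2 and 3, to 491 to 766 CPM in ODN+IM156, 214 to 298 CPM in IM156 and 248 to 439 CPM in control libraries. In bulk RNA, fewer cells of a type and less RNA per cell cannot be told apart.

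ODN against control asks how the TLR9 ligand alone changed these transcripts. Most members moved little: 5 of 43 were called at an adjusted p below 0.05 (edgeR's quasi-likelihood test, adjusted over all genes tested), 3 higher and 2 lower. The share called among all genes was 10.6%, with 7.34% higher and 3.25% lower, so that the members' count was near the background. Npm1, Polr1c and Nhp2 rose, and Rcl1 and Noc3l fell. An unadjusted p below 0.05 was reached by 15 members, against 25.2% of all genes. Signs leaned to the negative side: 30 of 43 log2 fold changes were below 0, against 50.8% of all genes, and the median was -0.14, against -0.0049 over all genes. The libraries of both groups did not overlap for 4 members that were higher in ODN and 9 that were lower, where all genes gave 13.2% and 11.3%. With library totals in place of TMM factors the calls were 2 higher (5.86% of all genes) and 5 lower (6.07%), and the median of all genes stood at -0.074.

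**Figure D1:**
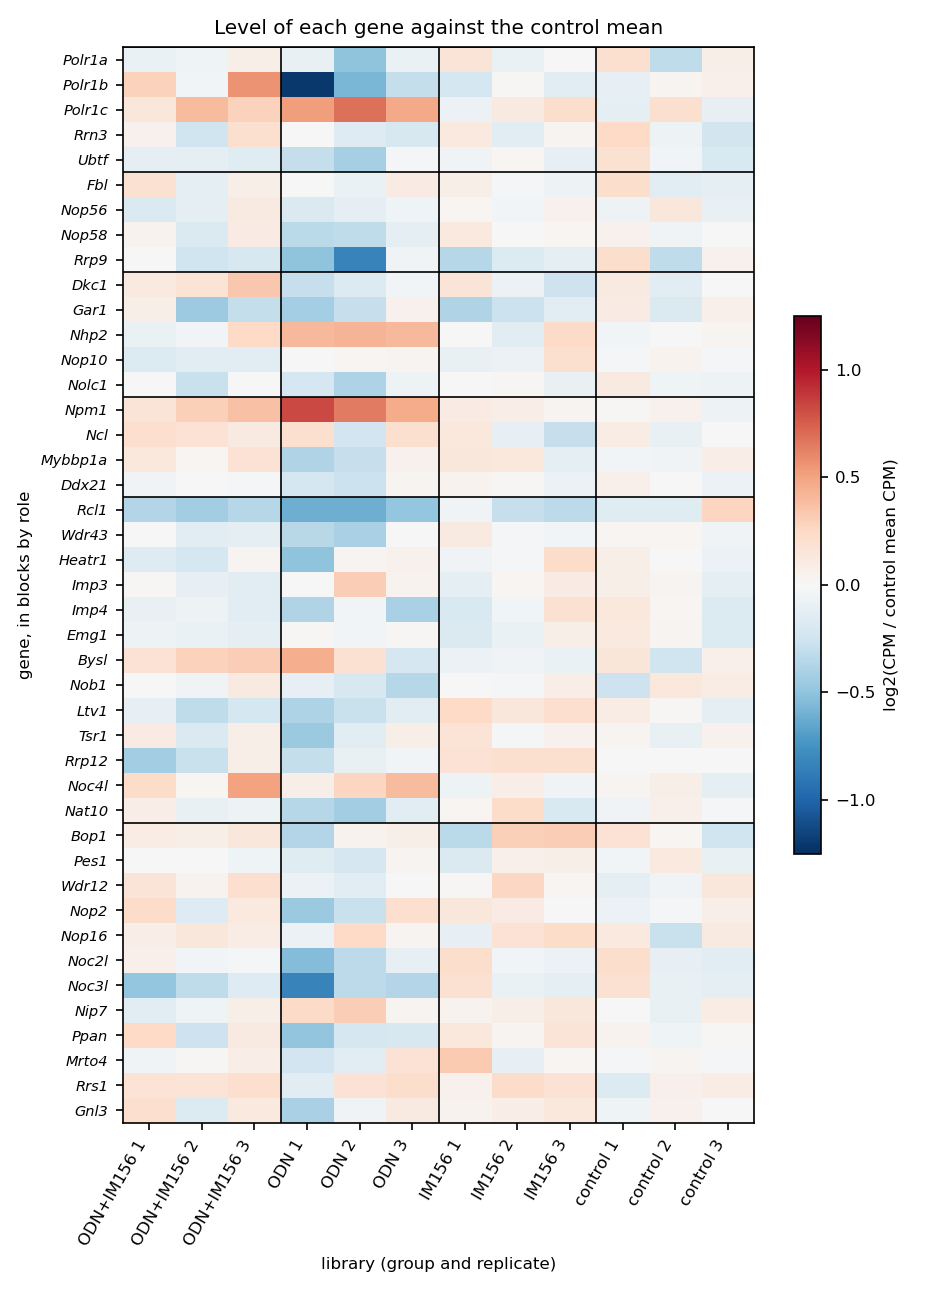
Level of each of the 43 genes (rows, in blocks of RNA polymerase I machinery, box C/D snoRNP, box H/ACA snoRNP with Nolc1, abundant nucleolar proteins, small subunit assembly and large subunit assembly) in each of the 12 libraries (columns), as log2 of CPM over the control mean of that gene. Npm1, Polr1c and Nhp2 are red in all 3 ODN libraries. Polr1b, Rcl1 and Noc3l, among others, are blue in all 3, with the deepest blue for Polr1b in ODN replicate 1. That library holds the lowest ODN value of 24 of the 43 genes.

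The start regions of the genes that these comparisons turn on are shown because members that share a pathway moved in opposite directions. Each line gives the 120 bases before the start of the gene in GENCODE, on the strand of the gene, with the letters read from RefSeq promoter entries (GRCm38.p6). The GENCODE start lies 38 bases before the RefSeq start in Nhp2, 31 in Ltv1, 9 in Polr1c, 1 in Polr1b and 0 in Rcl1 and Noc3l. Npm1 had no entry there, and 38 of the 43 members had one. Capitals mark matches to CCGGAAG on either strand, a core letter string of ETS factor sites.
Polr1b, chr2:129100875-129100994, plus strand: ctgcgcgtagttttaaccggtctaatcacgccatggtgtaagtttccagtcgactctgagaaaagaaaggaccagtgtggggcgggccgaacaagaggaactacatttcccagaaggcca
Polr1c, chr17:46248055-46248174, minus strand: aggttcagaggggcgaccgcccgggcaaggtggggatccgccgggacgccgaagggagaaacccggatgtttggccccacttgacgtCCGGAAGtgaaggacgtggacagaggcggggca
Nhp2, chr11:51619615-51619734, plus strand: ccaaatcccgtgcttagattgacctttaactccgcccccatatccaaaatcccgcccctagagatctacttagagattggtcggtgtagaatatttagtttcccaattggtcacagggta
Rcl1, chr19:29101255-29101374, plus strand: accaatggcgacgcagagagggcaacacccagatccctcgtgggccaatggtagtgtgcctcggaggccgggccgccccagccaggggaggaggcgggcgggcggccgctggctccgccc
Noc3l, chr19:38819238-38819357, minus strand: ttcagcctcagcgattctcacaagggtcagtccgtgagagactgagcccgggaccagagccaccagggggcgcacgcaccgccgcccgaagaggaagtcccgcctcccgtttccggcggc
Ltv1, chr10:13193169-13193288, minus strand: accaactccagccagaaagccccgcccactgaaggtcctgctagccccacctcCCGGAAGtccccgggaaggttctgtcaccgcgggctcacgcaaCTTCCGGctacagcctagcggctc
Polr1c holds 1 such match and Ltv1 holds 2, and a match of Nhp2 begins 23 bases before its RefSeq start, which is inside the gene as GENCODE places it and so past the end of the stretch shown. In the 250 bases before the RefSeq start, on both strands, CCGGAAG occurred in 9 of 38 member genes (23.7%), against 16.6% of 8998 tested genes with an entry. The E-box CACGTG, the letters bound by Myc with Max, occurred in 3 of 38 (7.89%), namely Imp4, Nop2 and Rrn3, against 9.96% of tested genes. The TATA string TATAAA occurred in 3 of 38 (7.89%), against 7.75%. The NRF1 site, the fourth string searched, occurred in 2 of 38 (5.26%), namely Rrp9 and Wdr12, against 9.82%. Among all 32851 promoter entries the shares were 6.91% for CCGGAAG, 6.02% for CACGTG, 12.4% for TATAAA and 3.74% for the NRF1 site. In the members' windows no match of one string overlapped a match of another. None of the 6 stretches shown holds CACGTG, but with the string in 9.96% of tested genes, 6 stretches are too few to read from. Whether any of these strings bears on the changes was not tested.

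Among the 5 genes of RNA polymerase I, 1 rose under ODN and none fell, and 4 had a negative log2 fold change. The shares over all genes were 7.34% higher, 3.25% lower and 50.8% negative, here and for each role below. A single call is too few to be read as a result about a role. Polr1c (chr17:46243920-46248054, minus strand, as all gene positions here in GRCm38 from GENCODE) encodes a subunit shared by RNA polymerases I and III. Its level was 77.5, 86.9 and 74.9 CPM in ODN libraries, against 49.7, 61.9 and 50.1 CPM in control libraries. All 3 ODN values lay above all 3 control values, with a log2 fold change of 0.57 (SE 0.11, adjusted p = 0.00274). Polr1b (chr2:129100995-129126594, plus strand), the second-largest core subunit of polymerase I, stood at 4.48, 6.96 and 8.42 CPM in ODN libraries, against 9.64, 10.6 and 10.8 CPM in control libraries. The ODN values were again apart from the control values, on the lower side, but the change did not pass the test (log2 fold change -0.64, SE 0.23, adjusted p = 0.0778). The other 3 genes encode the catalytic subunit Polr1a, the initiation factor Rrn3 and the upstream binding factor Ubtf, and had log2 fold changes from -0.23 (Ubtf) to -0.12 (Rrn3), none past the test.

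The proteins of the box C/D particles, whose RNAs mostly guide 2′-O-methylation of ribosomal RNA, gave no call under ODN. Their log2 fold changes ran from -0.42 (Rrp9, a protein specific to the snoRNP that acts in precursor cleavage) to 0.0057 (Fbl, the methyltransferase fibrillarin). Nop58, a core scaffold protein, had 182, 184 and 212 CPM in ODN libraries, against 238, 223 and 228 CPM in control libraries. Its ODN values were all lower, with a log2 fold change of -0.25 (SE 0.090, adjusted p = 0.0833). Nop56, the paired scaffold protein, had a log2 fold change of -0.12.

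Of the 5 genes of the box H/ACA class, whose particles convert uridine to pseudouridine and which also bind telomerase RNA, only Nhp2 was called in ODN against control. Nhp2 (chr11:51619735-51623714, plus strand), a core RNA-binding protein, had 52.4, 53.2 and 52.5 CPM in ODN libraries, against 38.8, 39.4 and 40.6 CPM in control libraries. Both groups were tight and apart from each other, with a log2 fold change of 0.41 (SE 0.12, adjusted p = 0.0271). The call was lost with library totals (log2 fold change 0.34), in a fit of the ODN and control libraries alone, and without any 1 of the 3 control libraries or of ODN replicates 1 and 2. The last 500 bases of Nhp2, where these libraries place their reads, overlap exons of Rmnd5b on the opposite strand. The strand rule of the counting is not given in the sources used here, so reads of both genes cannot be told apart in that stretch. Rmnd5b itself had 45.6 ± 6.39 CPM in ODN and 52.7 ± 1.95 CPM in control (SD, n = 3 each), with a log2 fold change of -0.21 (adjusted p = 0.233). The remaining members of the class, the pseudouridine synthase Dkc1, its partners Gar1 and Nop10, and the snoRNP chaperone Nolc1, had log2 fold changes from -0.21 (Nolc1) to 0.016 (Nop10), none past the test.

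Npm1 (chr11:33152287-33163206, minus strand), nucleophosmin, an abundant chaperone of the nucleolus with roles in ribosome export and in histone handling, gave the smallest p of all members. It had 974, 859.9 and 757 CPM in ODN libraries, against 553, 570.2 and 524 CPM in control libraries. Every ODN library lay above every control library, and the log2 fold change was 0.65 (1.57-fold, SE 0.094, adjusted p = 0.000207). The other 3 abundant nucleolar proteins did not pass the test. Ncl, nucleolin, had 1344, 993 and 1349 CPM in ODN and 1247, 1102 and 1166 CPM in control, with overlapping ranges and a log2 fold change of 0.069. The RNA helicase Ddx21 and the polymerase I regulator Mybbp1a had log2 fold changes of -0.15 and -0.19.

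**Figure D2:**
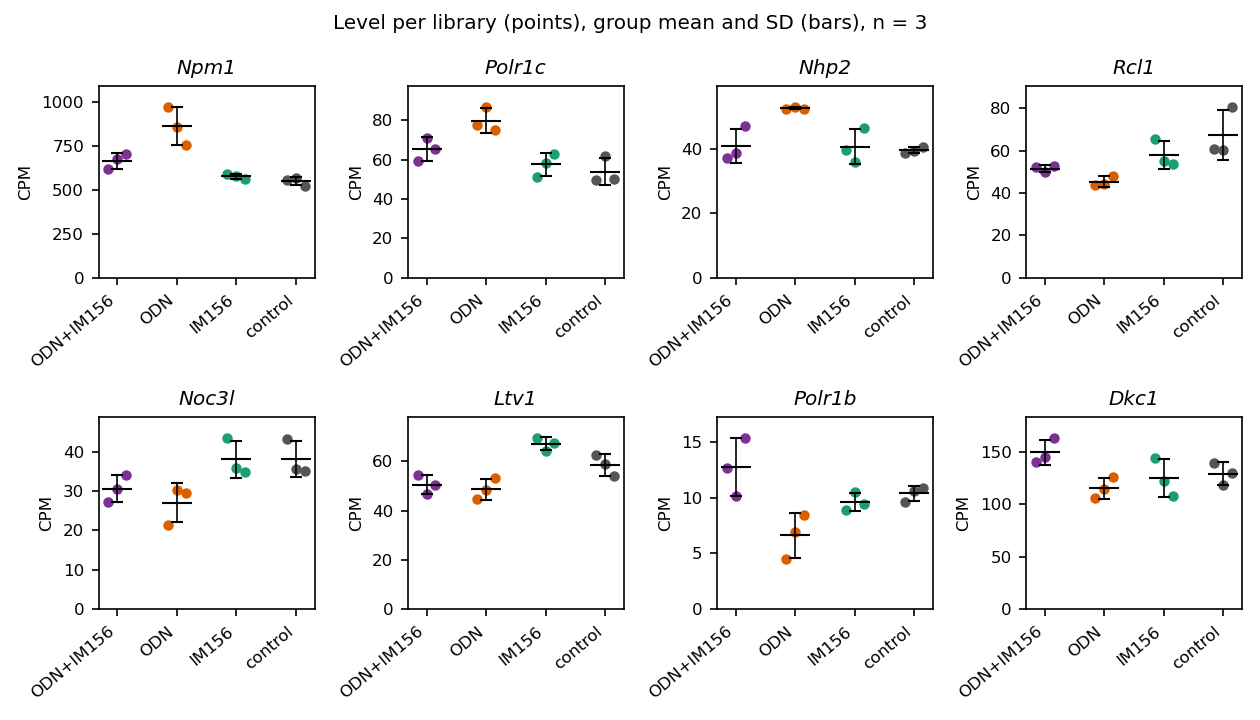
CPM of 8 genes in each library (points), with the group mean and SD (bars, n = 3), for the groups ODN+IM156, ODN, IM156 and control from left to right, and with axes that start at 0. Npm1, Polr1c and Nhp2 were highest in ODN, Rcl1 and Noc3l were lowest there, and Polr1b ran from 4.48 CPM in an ODN library to 15.3 CPM in an ODN+IM156 library.

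Of the 13 genes of small subunit assembly, 1 fell and none rose under ODN, with 9 negative values and a median log2 fold change of -0.15. Rcl1 (chr19:29101375-29143929, plus strand), a protein that in yeast acts in the cleavage which separates the precursors of both subunits, had 44.0, 44.0 and 48.1 CPM in ODN libraries, against 60.5, 60.3 and 80.8 CPM in control libraries. The ODN libraries lay below the control libraries without overlap, and the log2 fold change was -0.57 (SE 0.12, adjusted p = 0.00389). Ltv1 (chr10:13178140-13193168, minus strand), a late factor of the precursor of the small subunit, had 44.7, 48.3 and 53.1 CPM in ODN, against 62.5, 59.0 and 53.9 CPM in control. Its ODN values were also all lower, by a narrow margin, with a log2 fold change of -0.26 (adjusted p = 0.109). The other 11 genes had log2 fold changes from -0.31 (Nat10, the cytidine acetyltransferase of ribosomal RNA) to 0.25 (Noc4l, a nucleolar complex protein). Between them lay early factors of the processome (Wdr43, Heatr1, Imp3 and Imp4), the methyltransferase Emg1, the export and maturation factors Bysl, Rrp12 and Tsr1, and the endonuclease Nob1, which makes the last cut.

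Large subunit assembly gave 1 lower call and no higher one among 12 genes, with 9 negative values and a median log2 fold change of -0.083. Noc3l (chr19:38788128-38819237, minus strand), a nucleolar complex protein needed for intranuclear transport of the precursor in yeast, had 21.4, 30.4 and 29.5 CPM in ODN libraries, against 43.3, 35.7 and 35.1 CPM in control libraries. All ODN values were lower, with a log2 fold change of -0.49 (SE 0.15, adjusted p = 0.0377). That call was lost under 8 of the 20 alternatives, among them without ODN replicate 1 (log2 fold change -0.35) and without any 1 control library. Ppan, a factor of large subunit maturation, had 24.8, 30.1 and 30.3 CPM in ODN, against 35.98, 33.5 and 35.1 CPM in control, without overlap but with an adjusted p of 0.163 (log2 fold change -0.29). The subunits of the PeBoW complex, Pes1, Bop1 and Wdr12, which processes the precursor of the large subunit, had log2 fold changes of -0.11, -0.067 and -0.069. The others were the methyltransferase Nop2, the nucleolar GTPase Gnl3 and the assembly factors Nop16, Noc2l, Nip7, Mrto4 and Rrs1, with log2 fold changes from -0.31 (Noc2l) to 0.20 (Nip7).

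**Figure D3:**
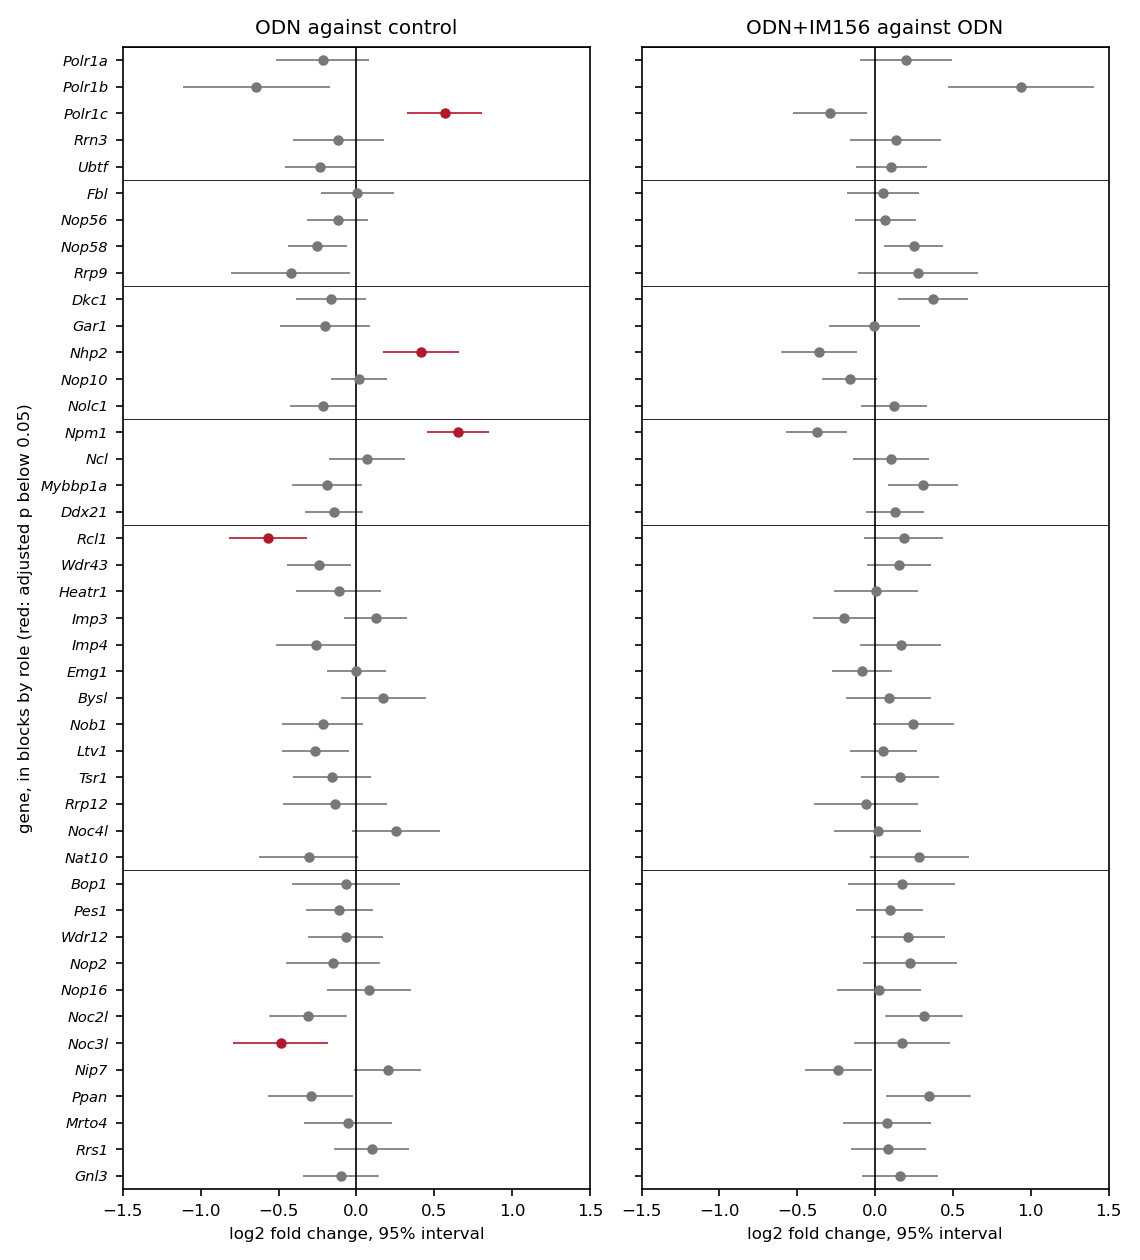
Log2 fold change of each of the 43 genes with its 95% interval in ODN against control (left) and ODN+IM156 against ODN (right), in the same blocks by role, with genes at an adjusted p below 0.05 in red. Npm1, Polr1c and Nhp2 are red on the positive side and Rcl1 and Noc3l on the negative side on the left, and no gene is red on the right.

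ODN replicate 3 sat closer to the control group than the other ODN libraries did. The median of the 43 members on a log2(CPM + 1) scale, relative to the control mean, was -0.23 in ODN replicate 1, -0.15 in replicate 2 and 0.017 in replicate 3. Of the 3 ODN libraries, replicate 1 was lowest in 24 members and replicate 3 highest in 31. The library with the lowest member median, ODN replicate 1, had the highest sum of cycling markers of the 3, and ODN replicate 3, with the highest member median, had the lowest. The part of cycling cells in these values was not tested. Without ODN replicate 3, 13 members were called in ODN against control, 3 higher and 10 lower, where all genes gave 15.5% called, 9.45% higher and 6.06% lower. The 3 higher ones were Npm1, Polr1c and Nhp2. The 10 lower ones were Rcl1, Noc3l, Polr1b, Rrp9, Noc2l, Wdr43, Ubtf, Ltv1, Mybbp1a and Nop58, with log2 fold changes from -0.85 (Polr1b) to -0.33 (Nop58). Without ODN replicate 1, or without any 1 of the control libraries, 3 members were called, 2 higher and 1 lower. The shares over all genes in those fits are not given here. Npm1, Polr1c and Rcl1 were called under all 20 alternatives, with log2 fold changes of 0.56 to 0.73, 0.50 to 0.68 and -0.64 to -0.41.

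The pathway holds many more genes than the 43. Of 141 further biogenesis genes listed, 140 were in the table and tested, and 12 were called in ODN against control, 4 higher and 8 lower, with a median log2 fold change of -0.10. Over all genes 10.6% were called, 7.34% higher and 3.25% lower, so the total is not above the background. Nsa2, a factor of large subunit assembly in yeast, rose (log2 fold change 0.52, adjusted p = 0.000794), as did Polr1d, the partner of Polr1c in RNA polymerases I and III (0.47, adjusted p = 0.00142), and Gltscr2, also named Nop53 (0.40, adjusted p = 0.00952). Rrp7a, a small subunit factor, rose as well (0.68, adjusted p = 0.0292), with overlapping libraries. Mdn1, the large AAA ATPase that remodels the precursor of the large subunit, fell (log2 fold change -0.56, adjusted p = 0.00389), as did Sdad1 (-0.52, adjusted p = 0.0102), Diexf, also named Utp25 (-0.49, adjusted p = 0.019), and the helicase Ddx10 (-0.40, adjusted p = 0.0265). By group, the 15 further genes of polymerase I had a median of 0.0056, 11 further snoRNP genes -0.047, 47 of small subunit assembly -0.11, 49 of large subunit assembly -0.15 and 18 of the exonucleases -0.040. The cytosolic ribosomal proteins, the structural products that these factors assemble, had the other sign: 81 of 82 rose, with a median log2 fold change of 0.54. Among 11 tested genes of the Myc network, Myc itself had 59.3 ± 10.9 CPM in ODN and 55.6 ± 9.63 CPM in control (SD, n = 3 each; log2 fold change 0.092, adjusted p = 0.731). The list had 6 of 11 negative values and a median log2 fold change of -0.021. Of its antagonists of Myc, Mxd4 (0.96, adjusted p = 0.00281) and Mxd3 (0.49, adjusted p = 0.0472, with overlapping libraries) rose, whereas Mnt (-0.30, adjusted p = 0.217), Mxd1 (-0.035, adjusted p = 0.908), Mxi1 (0.23, adjusted p = 0.49) and Mga (-0.26, adjusted p = 0.116) did not pass the test.

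**Figure D4:**
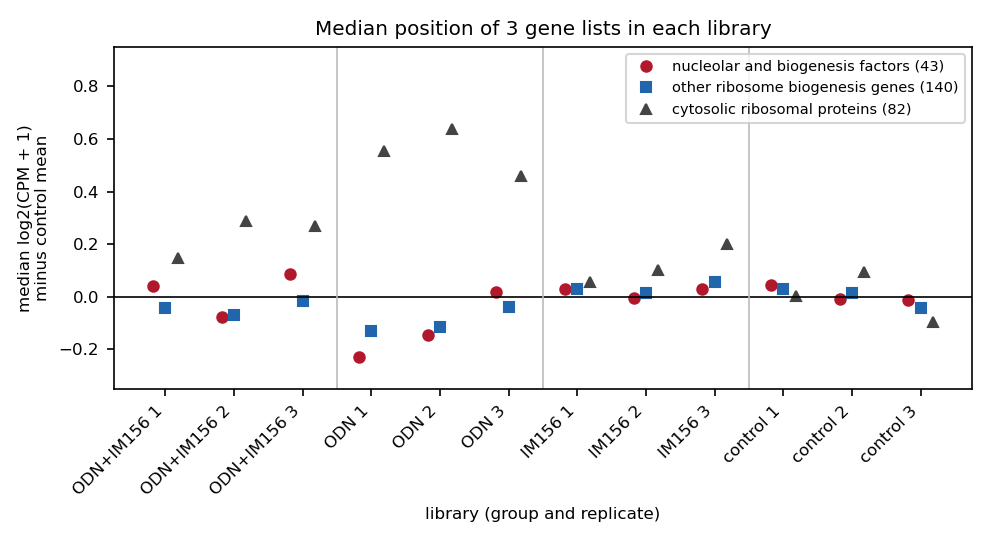
Median of log2(CPM + 1) minus the control mean over the 43 factors (circles), 140 other ribosome biogenesis genes (squares) and 82 cytosolic ribosomal proteins (triangles) in each library. The ribosomal proteins lie at 0.46 to 0.64 in the ODN libraries and the 43 factors at -0.23 to 0.017.

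Markers of other cells also differed between ODN and control libraries. Platelet and megakaryocyte markers (9 of 11 tested, 8 of them higher in ODN) summed to 113 to 161 CPM in ODN+IM156, 122 to 206 CPM in ODN, 50.6 to 52.0 CPM in IM156 and 32.3 to 49.9 CPM in control libraries. Neutrophil markers (3 of 11 tested, 2 higher) summed to 18.7 to 24.5 CPM in ODN+IM156, 23.6 to 88.5 CPM in ODN, 2.89 to 6.23 CPM in IM156 and 5.81 to 8.75 CPM in control. NK-cell markers (4 of 11 tested, 2 higher) summed to 9.94 to 14.2 CPM in ODN+IM156, 15.7 to 22.1 CPM in ODN, 1.96 to 4.11 CPM in IM156 and 2.00 to 3.97 CPM in control. Erythroid markers ran the other way (7 of 11 tested, 3 lower), with 56.5 to 109.5 CPM in ODN+IM156, 85.3 to 201 CPM in ODN, 79.4 to 434 CPM in IM156 and 510.0 to 655 CPM in control. Monocyte and macrophage markers (11 of 12 tested, 3 higher) summed to 72.3 to 122 CPM in ODN+IM156, 50.0 to 90.6 CPM in ODN, 42.05 to 77.6 CPM in IM156 and 39.4 to 74.3 CPM in control, so that ODN and control overlap. Dendritic-cell markers (9 of 10 tested, 1 higher) summed to 65.5 to 103 CPM in ODN+IM156, 66.1 to 68.4 CPM in ODN, 37.1 to 55.8 CPM in IM156 and 48.8 to 59.4 CPM in control. T-cell markers (6 of 12 tested) summed to 34.98 to 47.0 CPM in ODN+IM156, 34.5 to 41.6 CPM in ODN, 30.4 to 35.1 CPM in IM156 and 27.0 to 33.7 CPM in control, and plasma-cell markers (9 of 10 tested) to 820.3 to 884 CPM in ODN+IM156, 882 to 1051 CPM in ODN, 886 to 983 CPM in IM156 and 819 to 957 CPM in control, with no gene of either list called in ODN against control. All 14 cycling markers were higher in ODN, and no listed marker in the table was at 0 in all libraries. The part of these cells in the changes of the 43 genes was not tested.

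IM156 against control asks what the inhibitor did without the ligand. No member was called by edgeR or by DESeq2, and no member had an unadjusted p below 0.05. Over all genes 0% were called and 3.7% had an unadjusted p below 0.05. The median log2 fold change of the members was 0.021, and 15 of 43 were negative, against 49.9% of all genes. Ltv1 had the smallest p, with 69.4, 64.3 and 67.6 CPM in IM156 libraries, against 62.5, 59.0 and 53.9 CPM in control libraries. Its groups did not overlap (log2 fold change 0.20, SE 0.10, adjusted p = 0.999). Rcl1 was next, with 65.3, 54.9 and 53.5 CPM in IM156, against 60.5, 60.3 and 80.8 CPM in control, ranges that overlap (log2 fold change -0.22, SE 0.12, adjusted p = 0.999). Groups without overlap were seen for 2 members that were higher, Ltv1 and Rrp12, and for 0 that were lower, where all genes gave 5.16% and 5.25%. The 95% intervals of 42 of the 43 members lay within a 1.5-fold change in either direction and those of all 43 within 2-fold. The bounds farthest from 0 were -0.59 for Rrp9 and 0.52 for Rrp12 on the log2 scale.

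ODN+IM156 against ODN asks whether the inhibitor altered the levels reached with the ligand. No member was called by edgeR, where 0.0675% of all genes were, and 10 had an unadjusted p below 0.05, where 16.2% of all genes did. The signs were mostly positive: 9 of 43 members were below 0, against 51.2% of all genes, and the median was 0.12. Both groups' libraries did not overlap for 8 members higher in ODN+IM156 and 5 lower, where all genes gave 9.07% and 10%. ODN against control uses the same ODN libraries, so that their values enter both comparisons with opposite sign.

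The members with the smallest p in ODN+IM156 against ODN were Polr1b and Npm1. Polr1b had 12.6, 10.1 and 15.3 CPM in ODN+IM156 libraries, against 4.48, 6.96 and 8.42 CPM in ODN libraries. All ODN+IM156 values were higher, with a log2 fold change of 0.94 (SE 0.22, adjusted p = 0.0622), on 43 to 88 counts in an ODN library. Npm1 had 616, 675 and 706 CPM in ODN+IM156, against 974, 859.9 and 757 CPM in ODN. Its ODN+IM156 values were all lower, with a log2 fold change of -0.38 (SE 0.094, adjusted p = 0.0634). Dkc1, the pseudouridine synthase, followed with 140.2, 145 and 163 CPM in ODN+IM156, against 106, 114 and 126 CPM in ODN (log2 fold change 0.37, adjusted p = 0.0902). Nhp2, from the same particle, had the other sign, with 37.3, 38.6 and 47.1 CPM in ODN+IM156, against 52.4, 53.2 and 52.5 CPM in ODN (log2 fold change -0.36, adjusted p = 0.122). Dkc1 and Nhp2 here, and Ncl above, were picked out after their values were seen.

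These 0 calls turn on the fit. DESeq2 called 3 members, Npm1, Polr1b and Dkc1, where it called 3.15% of all genes. That share counts as not called 2759 genes that DESeq2 left without an adjusted p, so it is higher among the other genes. A fit with no filter on low counts called the same 3 members, where it called 3.82% of all genes. A robust fit called Npm1 and Polr1b, where it called 1.05%. Without ODN replicate 3, edgeR called 8 members, 7 higher and 1 lower, where 6.57% of all genes were called, 2.21% higher and 4.36% lower. The lower one was Npm1, and the 7 higher ones were Polr1b, Mybbp1a, Nop2, Dkc1, Noc2l, Nop58 and Wdr43, with log2 fold changes from 0.30 (Wdr43) to 1.15 (Polr1b). The cytosolic ribosomal proteins were again on the other side, with 82 of 82 negative, a median log2 fold change of -0.35 and 0 called by edgeR (74 at an unadjusted p below 0.05, and 55 called by DESeq2). Of the 140 other biogenesis genes none was called by edgeR (23 at an unadjusted p below 0.05, and 5 called by DESeq2), and their median was 0.070.

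**Figure D5:**
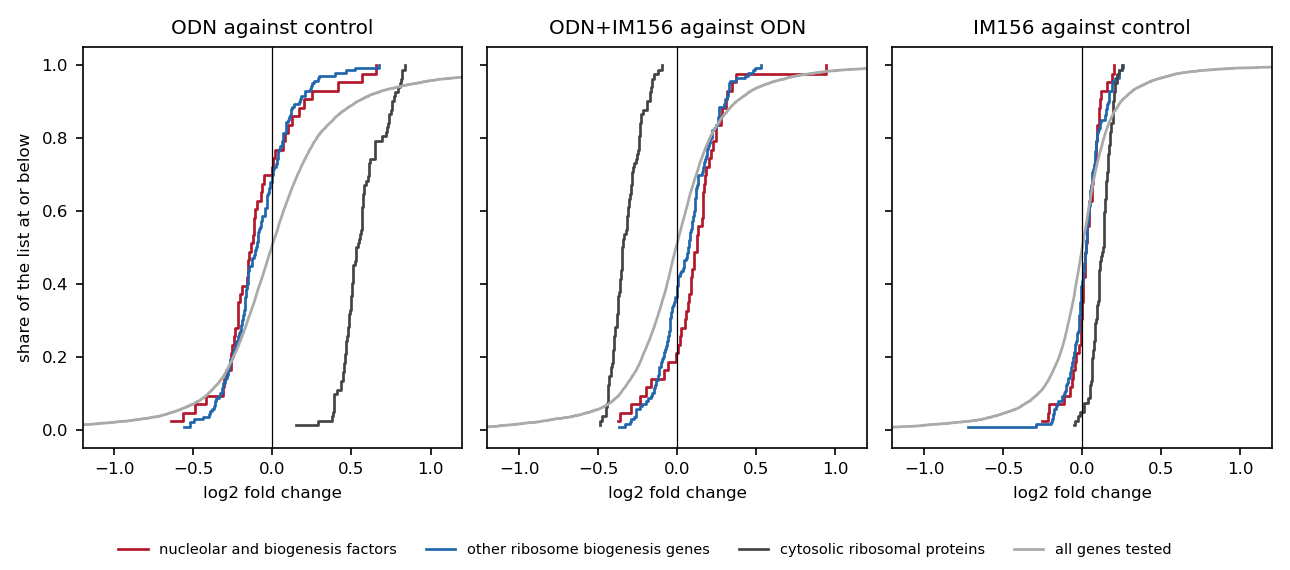
Share of each gene list (vertical axis) with a log2 fold change at or below the value on the horizontal axis, in ODN against control, ODN+IM156 against ODN and IM156 against control, for the 43 factors, 140 other ribosome biogenesis genes, 82 cytosolic ribosomal proteins and all genes tested. In ODN against control the medians of the factors (-0.14) and the ribosomal proteins (0.54) lie on either side of 0. In ODN+IM156 against ODN, which shares the ODN libraries, the medians lie the other way round (0.12 and -0.35). The curve of the factors crosses 0 in both.

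Set against IM156 alone, ODN+IM156 gives the response to the ligand in mice that had the inhibitor. Here 1 member was called, Ltv1, which was lower, where 2.47% of all genes were called and 0.734% were lower. Ltv1 had 54.4, 46.8 and 50.2 CPM in ODN+IM156 libraries, against 69.4, 64.3 and 67.6 CPM in IM156 libraries. The groups lay well apart, with a log2 fold change of -0.41 (SE 0.10, adjusted p = 0.0376). Leaving out any 1 of those 6 libraries ended the call, with log2 fold changes from -0.47 to -0.36. An unadjusted p below 0.05 was reached by 7 members, against 14.4% of all genes, and 27 of 43 were negative, against 50.7%. The 5 genes called in ODN against control had log2 fold changes of 0.20 (Npm1), 0.18 (Polr1c), 0.010 (Nhp2), -0.17 (Rcl1) and -0.32 (Noc3l) here, and 0.65, 0.57, 0.41, -0.57 and -0.49 without the inhibitor. They were picked by their calls without the inhibitor, which by itself favours larger values there, so the 2 sets of values are no test of a difference.

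The interaction is the effect of IM156 with the ligand minus its effect without it, and is the test of that difference. No member was called by edgeR, where 0% of all genes were, and 7 had an unadjusted p below 0.05, against 12.3% of all genes. Npm1 had the smallest p (interaction -0.45 on the log2 scale, SE 0.13, adjusted p = 0.177), followed by Polr1b (1.05, SE 0.31, adjusted p = 0.183). In Npm1, IM156 went with a log2 difference of -0.38 in the presence of ODN and 0.073 in its absence, and in Polr1b with 0.94 in its presence and -0.11 in its absence. DESeq2 called 1 member, Npm1, and left 14 members without an adjusted p. It called 1.39% of all genes, a share that counts as not called 7586 genes without an adjusted p. Among the genes with an adjusted p the share is higher. Without ODN replicate 3, Npm1 and Polr1b were called, where 2.15% of all genes were. Of the 43 interaction values, 13 were negative, against 51.4% of all genes.

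ODN+IM156 against control compares both agents together with no treatment. No member was called by edgeR or by DESeq2, where edgeR called 1.59% of all genes, and 4 members had an unadjusted p below 0.05, against 12.9% of all genes. Negative values were found for 21 of 43, against 50.9% of all genes, with a median of 0.0027. Rcl1 had the smallest p, with 52.1, 49.7 and 52.6 CPM in ODN+IM156, against 60.5, 60.3 and 80.8 CPM in control. All 3 values were lower, with a log2 fold change of -0.38 (SE 0.12, adjusted p = 0.13). It was called with no filter on low counts, where 3.05% of all genes were. Npm1 was next, with 616, 675 and 706 CPM in ODN+IM156, against 553, 570.2 and 524 CPM in control. Its values were all higher, with a log2 fold change of 0.28 (SE 0.094, adjusted p = 0.18).

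Averaged over mice with and without IM156, the effect of ODN was called for 5 members, 2 higher and 3 lower, where 12.2% of all genes were called, 8.09% higher and 4.09% lower. With library totals it was 2 higher (6.68% of all genes) and 5 lower (7.49%), and without ODN replicate 3 it was 9 members, where 15.5% of all genes were called. Npm1 (average log2 effect 0.43, SE 0.066, adjusted p = 0.000214) and Polr1c (0.37, SE 0.080, adjusted p = 0.0037) were higher. Ltv1 (-0.34, SE 0.072, adjusted p = 0.00355), Rcl1 (-0.37, SE 0.084, adjusted p = 0.00604) and Noc3l (-0.40, SE 0.10, adjusted p = 0.0134) were lower. Each of these 5 was called under all 19 alternatives that could give the average. Negative average effects were found for 31 of 43 members, against 52.1% of all genes. Of the 140 other biogenesis genes 4 were higher, again Nsa2, Gltscr2, Polr1d and Rrp7a, and 14 were lower, led by Cebpz (-0.31, adjusted p = 0.00487), Mdn1 (-0.34, adjusted p = 0.0103), Utp20 (-0.41, adjusted p = 0.0129) and Nle1 (-0.46, adjusted p = 0.0234).

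The effect of IM156 averaged over mice with and without ODN was called for no member by edgeR or by DESeq2, where edgeR called 0.0169% of all genes. An unadjusted p below 0.05 was reached by 7 members, against 8.17% of all genes, and 9 of 43 average effects were negative, against 51.3%. The average takes in ODN+IM156 against ODN, where 9 of 43 were negative and 10 had an unadjusted p below 0.05. It also takes in IM156 against control, where 15 of 43 were negative and 0 had such a p. Polr1b had the smallest p (average log2 effect 0.41, SE 0.16, adjusted p = 0.501). Ppan was next (0.23, SE 0.092, adjusted p = 0.535), with 41.3, 29.1 and 37.7 CPM in ODN+IM156, 24.8, 30.1 and 30.3 CPM in ODN, 38.2, 35.6 and 38.9 CPM in IM156 and 35.98, 33.5 and 35.1 CPM in control. The ODN+IM156 and ODN ranges of Ppan overlap, as do its IM156 and control ranges.

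The members varied most between replicates in the ODN group. The median coefficient of variation over the 43 genes was 6.83% in ODN+IM156, 11.6% in ODN, 8.49% in IM156 and 7.38% in control libraries. Polr1b was the most variable member in ODN+IM156 (20.4%) and in ODN (30.1%), Bop1 in IM156 (23.3%) and Rrp9 in control (18.3%). Within the last 500 bases of their annotated extent, 10 members share exon sequence with a gene on the opposite strand in GENCODE: Bop1 with Mroh1, Bysl with Ccnd3, Dkc1 with Mpp1, Emg1 with Lpcat3, Heatr1 with Lgals8, Mybbp1a with Spns2, Nhp2 with Rmnd5b, Noc2l with Samd11, Nop56 with Idh3b and Tsr1 with Srr. None of these 10 partners was called in ODN against control, with log2 fold changes from -0.28 (Spns2) to 0.19 (Ccnd3). Of the other biogenesis genes named above, Nsa2 shares such sequence with Fam169a, Cebpz with Cebpzos and Nle1 with Fndc8. The changes of those partners are not given here. Mrto4 has 2 pseudogenes that carry its name. Pseudogenes under other names were not counted, so other members, Npm1 among them, may have some. How reads that match several places were counted is not given in the sources used here. Reads of a gene and of its pseudogenes therefore cannot be told apart.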

How the data were processed

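Splenic B-cell RNA was made into 3′ mRNA libraries (QuantSeq), per the labels' protocols, and Bowtie2, bedtools, edgeR and the GRCm38 (mm10) build are named in the submitters' processing notes. How these tools were set, the annotation and the strand rule of counting are not given in the sources used here. The authors deposited raw read counts per gene, which were used as deposited, per the file headers. The 12 columns of normalized values were not used. Counts were fitted with edgeR 4.0.16 in R 4.3.3 (filterByExpr, TMM factors, quasi-likelihood test, 1 mean per group over all 12 libraries, 8 residual degrees of freedom). Tests were two-sided, with Benjamini-Hochberg adjustment over 11857 genes and calls at an adjusted p below 0.05. CPM values use the same library sizes and factors. The standard error is the size of the log2 fold change divided by the square root of the F statistic, and intervals are 95%.

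The 8 comparisons are 5 between pairs of groups, the interaction and 2 average effects. They share libraries. The members, the other lists and the tests were chosen with earlier results of these data known. Values in single libraries are given for members called in any comparison and for the 2 members with the smallest p where none was called. They are also given for the member of each role with the smallest p in the average effect of ODN. In the text these values cover every library for Rcl1, Ltv1 and Ppan, and only some of the groups for the others. Of other biogenesis genes, up to 4 called in each direction were named. Alternatives were DESeq2 1.42.0, library totals, upper-quartile factors, no filter, a robust fit, Rn45s left out, a replicate block, only the 2 groups compared, and each library left out in turn. The fitting code was tested on simulated data. Gene positions came from GENCODE and promoters from RefSeq, both on GRCm38. 1 listed B-cell marker is not reported here.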

Additional observations from a re-analysis of the deposited data

How the results depend on the processing

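No direction of a called member reversed under any alternative run. In ODN against control the 5 calls became 3 with only the 2 groups fitted and ranged from 3 to 13 with 1 library left out, the 13 without ODN replicate 3. In ODN+IM156 against ODN the 0 calls became 3 with DESeq2, 3 with no filter and 2 with a robust fit, and ranged from 0 to 8 with 1 library left out. In ODN+IM156 against IM156 the 1 call became 2 with only the 2 groups fitted (Ltv1 lower and Bysl higher) and ranged from 0 to 1 with 1 library left out. In ODN+IM156 against control the 0 calls became 1 with no filter. In the interaction the 0 calls became 1 with DESeq2 and ranged from 0 to 2 with 1 library left out. The average effect of ODN gave 5 calls, and 5 to 9 with 1 library left out. IM156 against control gave 0 calls under all 20 alternatives and the average effect of IM156 under all 19. Shares over all genes are given above for only some of these alternatives, so the other counts cannot be set against a background. The cause of these differences was not tested.

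Same-numbered libraries did not deviate together: over 18 pairs the correlations of their deviations from the group means ran from -0.10 to 0.079, and 2 of 12 libraries correlated best with their own number. The labels do not say what the numbers mark, and whether they mark a shared animal or batch cannot be told from these values. With the replicate block, 4 members were called in ODN against control, 3 higher and 1 lower, and Noc3l was not among them (log2 fold change -0.49, adjusted p = 0.0548 by edgeR). The share over all genes with the block is not given here. With library totals the 3 higher and 2 lower calls of ODN against control became 2 higher and 5 lower. At 43 counts in its lowest library, Polr1b had the least depth of the members.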
